A study of Mus musculus with 23 samples.

Results

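Defb39, its neighbours Defb37, Defb38 and Defb40, and the more distant Defb1 are beta-defensin genes of mouse chromosome 8. They were followed here in the ileum of mice that received the pregnane X receptor (PXR) ligand pregnenolone-16α-carbonitrile (PCN) or its vehicle. The set of 5 genes was built around Defb39, which was chosen by its increase with PCN in wild-type mice, and 4 of the 5 could be tested, among 17727 genes in all. Each of the 5 genes had 1 probe on the array. The probes of Defb39, Defb37, Defb40 and Defb1 were well above background on all 23 arrays and were tested, while the Defb38 probe was above background on 0 of 23 arrays and was not tested.

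All mice were male C57BL/6J, injected intraperitoneally once a day for 4 days and killed at ZT6, which was 6 h past the final injection. The labels call their state fed, and the study's text calls mice at this time semi-fasted. WT CONT mice (6 arrays) received corn oil and WT PCN mice (5 arrays) received PCN at 100 mg/kg in corn oil. Pxr-/- CONT (6 arrays) and Pxr-/- PCN mice (6 arrays) lacked Nr1i2, the gene that encodes PXR, and received the same injections. WT mice were bought at 6 weeks of age, whereas Pxr-/- mice, whose age was not given, had been backcrossed and bred in house for 10 years. Genotype and breeding origin therefore cannot be told apart. Mice of both genotypes were acclimatized for 2 weeks, and 6 were allocated to each group. Each array held the RNA of 1 mouse, and median spot signals ranged from 74 to 106 between arrays with 60.9% to 67.3% of probes above background.

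Beta-defensins are short cationic peptides that epithelia secrete. They are held together by disulfide bonds, damage microbial membranes, and some of them attract immune cells through the chemokine receptor CCR6. Defb1 is known as a broadly and constitutively expressed member, whereas Defb37, Defb38, Defb39 and Defb40 were first described in the epididymis. In the small intestine, the better known defensins are the alpha-defensins of Paneth cells. PXR is a nuclear receptor that binds xenobiotics and, with its partner RXR, turns on genes of drug metabolism such as those of the Cyp3a and Cyp2b families, and PCN is its classical ligand in rodents.

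By the array annotation (mm9), the Defb40 probe lay at chr8:18974949-18975008, the Defb37 probe at chr8:18986270-18986329, the Defb38 probe at chr8:19023505-19023564 and the Defb39 probe at chr8:19052918-19052977, each on the minus strand. The Defb1 probe lay farther along the same chromosome, on the plus strand, at chr8:22905599-22905658. Beta-defensin genes arose by duplication, so the probes of the most alike pair, Defb39 and Defb38, are printed to show how far they differ, with the probe of Defb40 as the next member that responded. Capitals mark the runs of at least 6 bases that the Defb39 and Defb38 probes share when placed for the most identities.

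Defb39: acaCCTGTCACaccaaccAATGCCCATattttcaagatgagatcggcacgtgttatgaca

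Defb38: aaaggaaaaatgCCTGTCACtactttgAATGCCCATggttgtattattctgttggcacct

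Defb40: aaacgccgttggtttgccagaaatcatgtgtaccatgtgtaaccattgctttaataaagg

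The Defb39 and Defb38 probes were identical at 31 of 51 overlapping bases (60.8%), with a longest shared run of 9 bases. The Defb37 and Defb40 probes were the other alike pair, at 32 of 53 bases (60.4%) and a longest run of 10 bases. Defb39 matched Defb37 at 37.3% and Defb40 at 33.3% of bases, with no shared run above 5 bases. Among the 56604 other probes of the array, 1 shared a run of at least 15 bases with the Defb39 probe.

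Without PCN, the 4 measured defensins gave modest signals in WT ileum. The quantile-normalized log2 signal of Defb39 in WT CONT mice was 7.56 ± 0.63 (SD, n = 6), with a lowest value of 6.97, a median of 7.32 and a highest of 8.66. Defb37 was at 8.60 ± 0.45 (SD, n = 6; 7.99, 8.71 and 9.22), Defb40 at 7.66 ± 0.50 (SD, n = 6; 7.15, 7.65 and 8.27) and Defb1 at 7.12 ± 0.35 (SD, n = 6; 6.58, 7.18 and 7.57). Because probes differ in brightness, levels were not compared between genes. In RNA from whole ileum, fewer cells of a type and less RNA per cell cannot be told apart.

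In WT mice, PCN raised Defb37 and Defb40, the neighbours of Defb39, while the change of Defb1 did not pass the test. Defb39 itself, chosen on these arrays and therefore only described, was at 10.32, 11.90, 11.24, 12.37 and 11.04 in WT PCN replicates 1 to 5. Each of these 5 mice lay above the highest WT CONT mouse. The estimated increase was 3.79 on the log2 scale (SE 0.42), or 13.8-fold, which ranked 4 among the 17727 genes. Cyp3a41a stood just above it in that ranking at 3.96 and Cyp3a16 just below it at 3.76, both drug-metabolizing cytochromes P450 of the family through which PXR activation is usually read.

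Defb37 was at 10.31, 11.59, 11.40, 12.11 and 11.14 in WT PCN replicates 1 to 5, again above every WT CONT mouse. Its increase was 2.70 on the log2 scale (SE 0.371, limma adjusted p = 0.000233), or 6.48-fold (3.8 to 11.1). Defb40 was at 9.59, 10.57, 10.23, 12.07 and 11, also without overlap, and increased by 3.01 (SE 0.426, limma adjusted p = 0.000321), or 8.06-fold (4.37 to 14.9). They ranked 13 and 10 among the 17727 genes. Defb1 was at 8.16, 8.19, 7.35, 8.15 and 7.91, and 4 of the 5 mice exceeded every WT CONT mouse, yet its difference of 0.81 (SE 0.375) had a limma adjusted p of 0.392.

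Apart from Defb39, which is not counted because these arrays chose it, 2 of the 3 tested defensins were thus called higher with PCN in WT mice, where 0.599% of all tested probes were called higher. The members were chosen with earlier results of these data known, so this count and those of the other comparisons are descriptions. The groups did not overlap for the same 2 genes, Defb37 and Defb40, which held for 1.3% of all probes. A probe was called where its p, adjusted over 37591 probes, was 0.05 or less and its fold change exceeded 1.5. The 2 wash batches of the arrays gave the same direction for all 4 genes. Within batch 1 the differences were 4.6 for Defb39, 3.22 for Defb37, 3.67 for Defb40 and 0.61 for Defb1, and within batch 2 they were 3.17, 2.34, 2.55 and 0.98. Within batch 2 alone the adjusted p was 0.157 for Defb37 and 0.146 for Defb40.

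**Figure D1:**
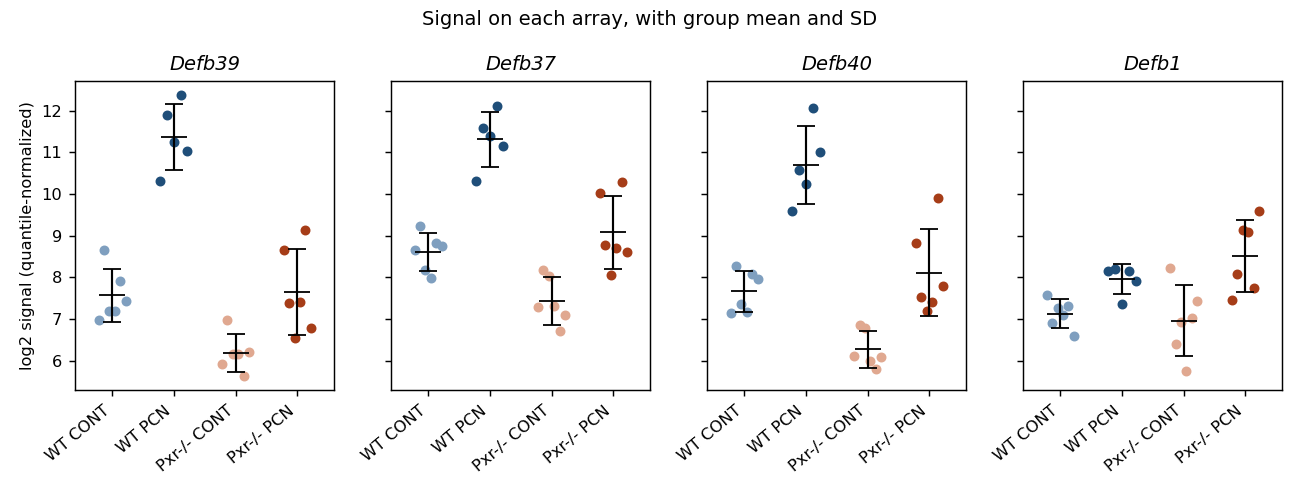
Quantile-normalized log2 signal (vertical axis) of Defb39, Defb37, Defb40 and Defb1 in the 4 groups, 1 point per mouse, with the group mean and SD as a bar. For Defb39, Defb37 and Defb40, all 5 WT PCN mice lie above all 6 WT CONT mice, and Pxr-/- PCN mice spread widely below most of them.

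In Pxr-/- mice, which lack the receptor for PCN, all 4 measured defensins were also higher with PCN. Defb39 was at 6.18 ± 0.45 (SD, n = 6; lowest 5.62, median 6.16, highest 6.98) in Pxr-/- CONT mice and at 7.65 ± 1.03 (SD, n = 6; 6.55, 7.39 and 9.13) in Pxr-/- PCN mice. Of the 6 PCN mice, 4 lay above every CONT mouse. The difference was 1.47 on the log2 scale (SE 0.399, limma adjusted p = 0.0433), or 2.77-fold (1.56 to 4.91). This call was close to the threshold, since leaving out 1 array at a time ended it for 12 of the 23 arrays, with a highest adjusted p of 0.118 and a difference of 1.18 without Pxr-/- PCN replicate 5.

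Defb37 went from 7.43 ± 0.56 (SD, n = 6; 6.70, 7.30 and 8.18) to 9.08 ± 0.88 (SD, n = 6; 8.06, 8.74 and 10.29) in Pxr-/- mice. Its difference was 1.65 (SE 0.353, limma adjusted p = 0.0132), or 3.13-fold, with 5 of 6 PCN mice above every CONT mouse. Defb40 went from 6.27 ± 0.44 (SD, n = 6; 5.79, 6.10 and 6.86) to 8.10 ± 1.05 (SD, n = 6; 7.19, 7.66 and 9.89), without overlap. Its difference was 1.84 (SE 0.406, limma adjusted p = 0.0155), or 3.57-fold.

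Defb1, the constitutive member, also rose with PCN in Pxr-/- mice. It went from 6.96 ± 0.84 (SD, n = 6; 5.76, 6.98 and 8.21) to 8.52 ± 0.87 (SD, n = 6; 7.45, 8.58 and 9.60), a difference of 1.55 (SE 0.357, limma adjusted p = 0.019), or 2.93-fold. The groups overlapped, with 3 of 6 PCN mice above every CONT mouse. All 4 tested defensins were called higher here, where 0.716% of tested probes were called higher, and 1 of the 4, Defb40, did not overlap, where 1.23% of probes did not.

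These differences in Pxr-/- mice had other sizes in each wash batch, and with 3 mice per group in a batch none was called within it. Within batch 1, the differences were 0.93 for Defb39, 1.30 for Defb37, 1.36 for Defb40 and 2.52 for Defb1. Within batch 2, they were 2.01, 1.99, 2.31 and 0.58. Batch 2 thus held the larger differences of the Defb39 neighbours and the smaller difference of Defb1, and the gap between batches was not tested.

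Without PCN, Pxr-/- mice had lower values of Defb39, Defb37 and Defb40. The WT CONT arrays took part in choosing Defb39, so its difference here is only described. Of the 3 other tested defensins 0 were called by limma. An unadjusted p under 0.05 was reached by 2 of them, and by 3338 of all 37591 tested probes. The difference from WT CONT mice was -1.38 for Defb39 (SE 0.399), -1.17 for Defb37 (SE 0.353, limma adjusted p = 0.218) and -1.39 for Defb40 (SE 0.406, limma adjusted p = 0.197). For Defb40 all 6 Pxr-/- CONT mice lay below every WT CONT mouse, a separation found for 0.476% of tested probes, and for Defb39 and Defb37 this held for 5 and 4 of the 6 mice. Defb1 differed by -0.16 (SE 0.357, limma adjusted p = 0.959), with largely overlapping values. Only 0.104% of tested probes were called lower in this comparison. With slide in place of wash batch in the model, Defb37 and Defb40 passed, with differences of -1.53 and -1.83 and limma adjusted p of 0.0264 and 0.0223. Defb39 was at -1.83 in that model. Within the 2 wash batches, differences were -0.95 and -1.82 for Defb39, -1.14 and -1.21 for Defb37, -1.27 and -1.51 for Defb40, and -0.74 and 0.42 for Defb1.

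Under PCN, the genotypes were further apart. Pxr-/- PCN mice were lower than WT PCN mice, with a log2 difference of -2.22 for Defb37 (SE 0.371, limma adjusted p = 0.00226) and of -2.56 for Defb40 (SE 0.426, limma adjusted p = 0.00222). The difference for Defb39, which uses the arrays that chose it, was -3.70 (SE 0.42). All 6 Pxr-/- PCN mice lay below every WT PCN mouse for Defb39 and for Defb37, and 5 of 6 did for Defb40. Defb1 differed by 0.58 in the opposite direction (SE 0.375, limma adjusted p = 0.899). Without Defb39, 2 of 3 were called lower, where 0.303% of probes were, and 1 of 3, Defb37, did not overlap, where 0.665% of probes did not. Within wash batch 1 the differences were -4.62 for Defb39, -3.06 for Defb37, -3.58 for Defb40 and 1.17 for Defb1, and within batch 2 they were -2.97, -1.56, -1.75 and 0.02.

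Whether PCN acted differently in the 2 genotypes was asked by the interaction, the PCN difference in Pxr-/- mice minus that in WT mice. It was -1.05 for Defb37 (95% confidence interval -2.11 to 0.01, limma adjusted p = 0.999) and -1.17 for Defb40 (-2.39 to 0.05, limma adjusted p = 0.999). For Defb1 it was 0.74 (-0.34 to 1.81, limma adjusted p = 0.999). A smaller PCN response in Pxr-/- mice was therefore not shown for Defb37 or Defb40, and the intervals leave both a much weaker and an equal response possible. The value for Defb39, -2.32 (SE 0.579), contains the contrast that chose the gene and was not tested. Of the 3 defensins tested for it 0 were called by limma, and 0 had an unadjusted p under 0.05, against 0.0771% of all probes called. Within wash batch 1 the interaction was -3.67 for Defb39, -1.92 for Defb37, -2.31 for Defb40 and 1.91 for Defb1, and within batch 2 it was -1.16, -0.35, -0.24 and -0.40.

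**Figure D2:**
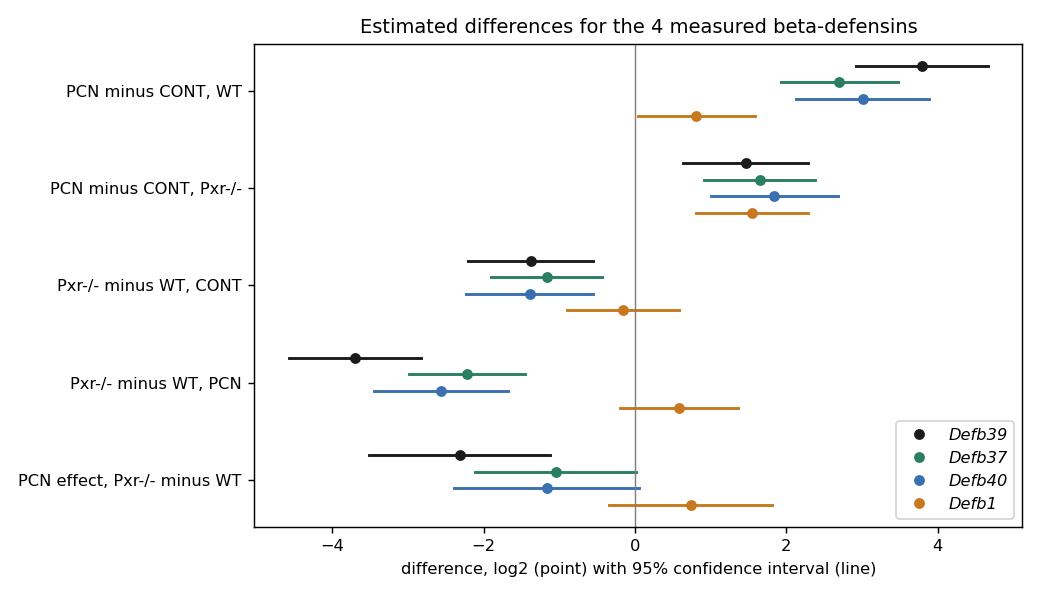
Differences on the log2 scale (horizontal axis, points) with 95% confidence intervals (lines) for the 4 measured defensins in the 5 comparisons, with the interaction at the bottom. Defb39 was chosen on the WT arrays, and its intervals for the comparisons that use them take no account of that choice. Defb39, Defb37 and Defb40 lie together to the right of 0 with PCN and to the left for Pxr-/- against WT, while Defb1 stands apart in 4 of the 5 comparisons and joins them for PCN in Pxr-/- mice.

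Defb38, which lies between Defb37 and Defb39, gave no measurable signal. The unnormalized log2 median signal of its probe ranged from 4.64 to 5.11 over the 23 arrays, not well above background on any of them. This range included the 5 WT PCN arrays on which the Defb39 probe, alike at 31 of 51 bases, had unnormalized log2 values of 10.40 to 12.39. No fold change was computed for Defb38.

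Within groups, Defb39, Defb37 and Defb40 varied together from mouse to mouse. In the WT PCN group replicate 4 was the highest and replicate 1 the lowest for each of the 3 genes. Replicate 2 was the highest in both the WT CONT and the Pxr-/- CONT group for each of them. In the Pxr-/- PCN group, replicates 5 and 1 were the highest and replicate 3 the lowest for each of them, and all 3 of these arrays belonged to wash batch 2.

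Defb1 followed another order. In the Pxr-/- PCN group its values in replicates 1 to 6 were 7.45, 8.08, 9.13, 9.08, 7.75 and 9.60, so that it was lowest in the same replicates 1 and 5 in which Defb39 reached 8.65 and 9.13. After each value was taken minus its group mean, the gap between Defb39 and Defb37 had an SD of 0.31 over the 23 arrays, and the gap between Defb39 and Defb40 had an SD of 0.38. The deviations of Defb39 alone had an SD of 0.75, and those of Defb1 an SD of 0.67. The gap between Defb39 and Defb1 had an SD of 1.23. These SDs describe genes measured on the same arrays and were not tested.

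**Figure D3:**
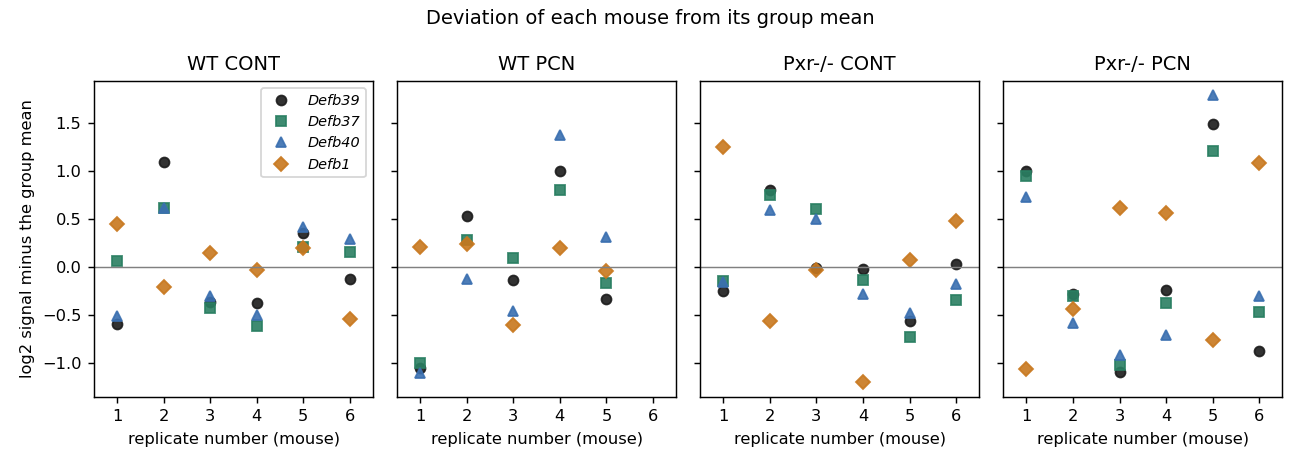
Log2 signal of each mouse minus the mean of its group (vertical axis) against replicate number (horizontal axis), 1 panel per group and 1 symbol per gene; replicate numbers carry no order. The symbols of Defb39, Defb37 and Defb40 lie close to each other in most mice, within an SD of 0.31 to 0.38, while those of Defb1 often lie on the other side of 0.

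Over all 23 arrays, the 2 genes whose pattern was most like that of Defb39 were its neighbours. The measure was the mean absolute gap between log2 values, each taken minus its own WT CONT mean, and 17726 genes were ranked. This measure contains the WT PCN increase by which Defb39 was chosen, so the ranking is a description and was not tested. Defb40 came first with a gap of 0.385 and Defb37 second with 0.49. They were followed by Cyp2b9 (0.647) and Cyp2b10 (0.695), which encode cytochromes P450 of drug metabolism, and by Ces2a (0.777), which encodes a carboxylesterase. Defb1 ranked 16458 of the 17726 genes, toward the least alike end, with a gap of 1.63 against a median gap of 1.53.

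The P450 genes are set beside the defensins to show how known PXR targets behaved on these arrays. Cyp2b10 rose with PCN in WT mice by 4.61 on the log2 scale (SE 0.359) and differed by 0.72 in Pxr-/- mice (SE 0.342, limma adjusted p = 0.25). Cyp2b9 rose by 4.08 in WT mice and differed by 0.29 in Pxr-/- mice. Cyp3a11, the standard PXR target of the study, rose by 3.53 (SE 0.321) in WT mice and differed by -0.05 (SE 0.305) in Pxr-/- mice. Cyp2c55, another established target, rose by 3.51 (SE 0.469) in WT mice and differed by 1.58 in Pxr-/- mice (SE 0.446, limma adjusted p = 0.0502). The interaction was called for Cyp2b10 (-3.89, limma adjusted p = 0.000875) and for Cyp3a11 (-3.58, limma adjusted p = 0.000875), but not for Cyp2c55 (-1.93, SE 0.647, limma adjusted p = 0.787). The probe of Nr1i2 itself did not separate the genotypes, with 11.82 to 12.36 in WT CONT and 11.42 to 12.27 in Pxr-/- CONT mice, and so gave no check of the labels. Cyp3a11 did separate them, at 6.94 to 9.47 in WT CONT and 6.38 to 6.75 in Pxr-/- CONT mice.

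The 3 genes lay in a short stretch of the defensin cluster. Within 1000 kb on either side of the Defb39 probe, 61 probes were annotated and 33 were tested. Defb40 lay 78.0 kb, Defb37 66.6 kb and Defb38 29.4 kb away from Defb39 on one side. Besides the 3 members, 30 other probes of 26 named genes or transcripts were tested. With PCN in WT mice 2 of them were called, both higher, where 0.599% of all tested probes were called higher. One was Defb6, another beta-defensin, 175.2 kb from Defb39 on the other side. The other was Gm39139, an uncharacterized transcript at 110.7 kb, which differed by 0.67 (SE 0.158, limma adjusted p = 0.0317) and lost the call on leaving out any of 8 of the 23 arrays. In Pxr-/- mice 0 of the 30 were called with PCN by limma, with 4 at an unadjusted p under 0.05. Between the genotypes without PCN 0 were called, with 3 at an unadjusted p under 0.05. Of all 37591 tested probes, 7337 and 3338 had an unadjusted p under 0.05 in these 2 comparisons. Of the probes between or next to the members, those of Defb12, Spag11b and Spag11a were above background on 0 arrays and that of Defb34 on 4. A probe of Xkr5, the gene that follows Defb40, lay 119.9 kb from Defb39 and differed by 0.44 (SE 0.116, limma adjusted p = 0.0677) with PCN in WT mice. Another tested probe of Xkr5, at 119.8 kb, differed by 0.03 (SE 0.156) with PCN in WT mice. Neither probe was called.

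**Figure D4:**
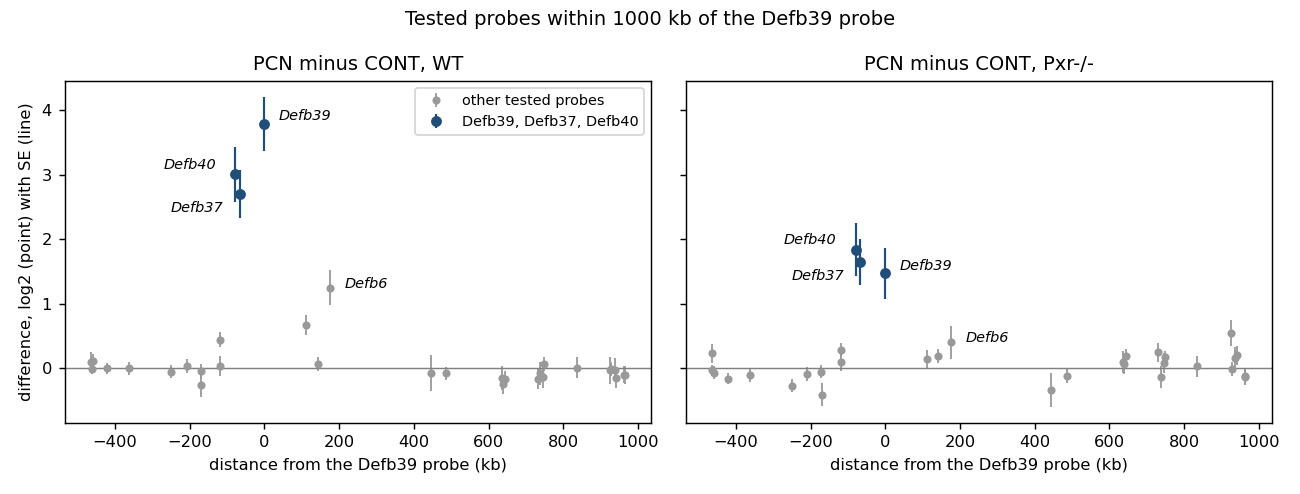
PCN minus CONT on the log2 scale (vertical axis, points, with SE as lines) for the 33 tested probes within 1000 kb of the Defb39 probe, against distance from it in kb (horizontal axis), in WT mice on the left and Pxr-/- mice on the right. Defb39, Defb37 and Defb40 stand above the other probes in both panels, and Defb6 stands above 1 in the left panel.

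Among beta-defensins as a whole, detection in the ileum was sparse. Of 49 listed beta-defensin genes, 45 had a probe, 22 of these were above background on no array and 5 (Defb1, Defb6, Defb37, Defb39 and Defb40) on every array. Of the 10 that could be tested, 9 remain without Defb39, which was chosen on the WT arrays. Of the 9, 3 were called higher with PCN in WT mice, Defb37, Defb40 and Defb6, where 0.931% of all genes were called higher. In Pxr-/- mice 4 of 10 were called higher, all of them members, where 1.2% of genes were. The median change was 0.26 in WT mice over the 9 genes without Defb39 and 0.34 in Pxr-/- mice over all 10, against -0.02 and 0.00 over all genes.

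Defb6 was the only non-member among the beta-defensins to be called. Its group means were 7 in WT CONT, 8.27 in WT PCN, 6.65 in Pxr-/- CONT and 7.05 in Pxr-/- PCN mice. It rose with PCN in WT mice by 1.25 (SE 0.266, limma adjusted p = 0.016), and differed by 0.40 in Pxr-/- mice (SE 0.253, limma adjusted p = 0.4). Its interaction of -0.85 (SE 0.367, limma adjusted p = 0.999) was not called. Between the genotypes under PCN, Defb6 was lower in Pxr-/- mice (log2 difference -1.2, SE 0.266, limma adjusted p = 0.0325), so that, again without Defb39, 3 of the 9 beta-defensins were called lower there, against 0.468% of genes. Defb42, Defb14, Defb25, Defb45 and Defb7, the remaining tested genes, differed by -0.34 to 0.28 with PCN and none of them was called.

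**Figure D5:**
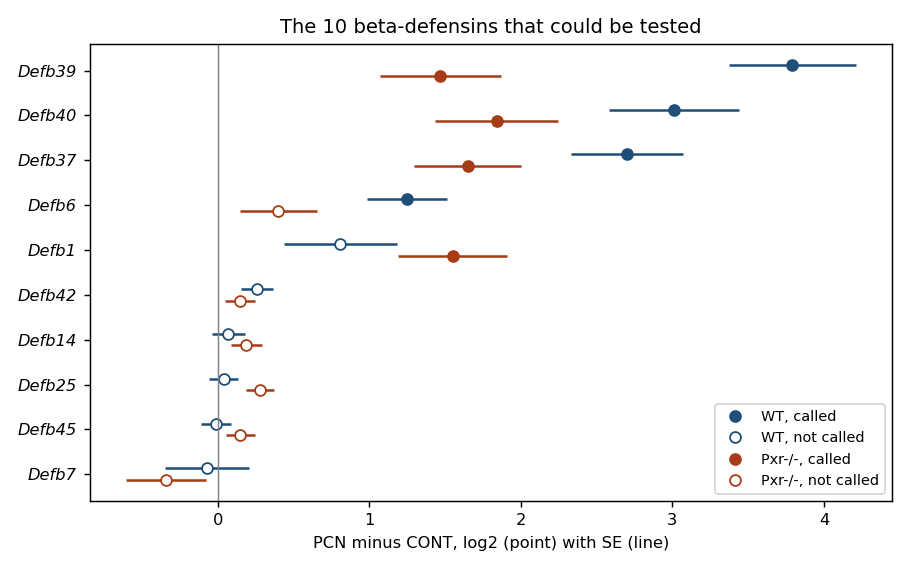
PCN minus CONT on the log2 scale (horizontal axis, points, with SE as lines) for the 10 tested beta-defensins in WT and Pxr-/- mice, with filled points for genes called (adjusted p of 0.05 or less, fold change over 1.5). Defb39, Defb40 and Defb37 are called in both genotypes, Defb6 in WT mice and Defb1 in Pxr-/- mice.

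Other defence genes of the ileum were followed from gene lists that were chosen with earlier results of these data known. Of 7 tested alpha-defensins, the antimicrobial peptides of Paneth cells, 0 were called in either genotype by limma (0 in WT and 2 in Pxr-/- mice at an unadjusted p under 0.05), with median PCN changes of -0.01 in WT and 0.27 in Pxr-/- mice. Of all 37591 tested probes, 4441 in WT and 7337 in Pxr-/- mice had an unadjusted p under 0.05 with PCN. Of 32 other antimicrobial effectors, 3 were called higher and 1 lower in WT mice, and 3 higher in Pxr-/- mice. Over all genes, 0.931% in WT and 1.2% in Pxr-/- mice were called higher with PCN, and 34 of the 37591 tested probes were called lower in WT mice. The higher ones were S100a9 and S100a8, the subunits of calprotectin, and Lcn2, which binds bacterial siderophores. S100a9 rose by 2.16 (SE 0.46) in WT and 2.91 (SE 0.438) in Pxr-/- mice, S100a8 by 1.64 (SE 0.398) and 2.54 (SE 0.378), and Lcn2 by 0.78 (SE 0.156) and 0.76 (SE 0.149). The call of S100a8 in WT mice was lost on leaving out any of 12 of the 23 arrays and that of S100a9 without WT PCN replicate 2 (1.94, limma adjusted p = 0.0628). The ribonuclease gene Rnase4 fell by 0.66 in WT mice (SE 0.125). Of 6 tested receptors and ligands of beta-defensins 0 were called by limma, with 3 in WT and 0 in Pxr-/- mice at an unadjusted p under 0.05. They include Ccr6, at group means of 8.24, 9.37, 8.08 and 8.40, and Ccl20, the chemokine that shares this receptor, at 8.08, 10.65, 8 and 8.99 in WT CONT, WT PCN, Pxr-/- CONT and Pxr-/- PCN mice. Of 21 tested regulators of defensin genes, 1 was called, the interleukin-1 receptor gene Il1r1, which rose by 0.59 (SE 0.149) in Pxr-/- mice and lost its call without any of 7 of the 23 arrays.

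Markers of cell types were read beside these results. All 6 Paneth, all 5 goblet and all 5 ileal enterocyte markers on the array were above background on every array. Summed linear signals of the Paneth markers were 597000 to 700000 in WT CONT and 586000 to 727000 in WT PCN mice, and 494000 to 701000 and 616000 to 740000 in Pxr-/- CONT and Pxr-/- PCN mice. Defa24 and Itln1, at log2 group means of 18.31 to 18.38 and 16.87 to 17.42, made up most of these sums. Pla2g2a, at 9.94 to 10.22, added little. All 6 Paneth markers had estimates above 0 with PCN in Pxr-/- mice (median 0.32), 0 were called by limma and 1 had an unadjusted p under 0.05. Summed signals of the goblet markers were 949000 to 1010000 in WT CONT and 645000 to 862000 in WT PCN mice, and 774000 to 1110000 and 497000 to 830000 in the Pxr-/- groups. With PCN, 0 of the 5 goblet markers had an estimate above 0 in either genotype (median -0.27 in WT and -0.46 in Pxr-/- mice). An unadjusted p under 0.05 was reached by 4 of them in WT and 5 in Pxr-/- mice, against 4441 and 7337 of all 37591 tested probes. Fcgbp, a goblet cell mucus protein gene, fell by 0.63 with PCN in Pxr-/- mice (SE 0.118) and was the goblet marker called, though its change came below the fold threshold without Pxr-/- CONT replicate 4 (-0.56) or Pxr-/- PCN replicate 5 (-0.53). Of the 8 tested neutrophil markers the calprotectin genes were the 2 called, where 0.931% of genes in WT and 1.2% in Pxr-/- mice were called higher with PCN. Neutrophil sums were 38600 to 50100, 41500 to 53700, 36700 to 51500 and 43600 to 51000 in the 4 groups. Csf3r, at log2 group means of 15.4 to 15.46, made up most of these sums. The highest group mean of any other neutrophil marker was 10.54 (S100a9), so the sums say little about the other markers. Of the 5 keratinocyte markers, Krt14 was called, higher with PCN by 2.81 (SE 0.304) in WT and 2.53 (SE 0.29) in Pxr-/- mice. The other 4 were not called and differed by -0.26 (Krt10) to 0.20 (Krt5) in WT and by -0.28 (Trp63) to 0.07 (Krt1) in Pxr-/- mice. The part of these cell types in the changes of the defensins was not tested. Epididymal markers were set beside Defb37, Defb39 and Defb40 because of their best known site. Of 12 listed, 6 were above background on no array and 4 on 1 array, and Lcn12 and Rnase10 were above background on all 23, at group means of 8.63 to 8.73 and 7.58 to 7.65. Of these 2 tested genes 0 were called by limma or had an unadjusted p under 0.05 with PCN. The summed signal of all 12 epididymal markers was 850 to 920, 845 to 965, 854 to 1020 and 817 to 993 in the 4 groups, most of it from Lcn12 and Rnase10.

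The start regions of Defb39 and Defb38 are printed because they are alike in sequence while 1 of the genes gave a strong PCN response and the other no signal. They are the RefSeq promoter windows (GRCm38.p6, minus strand), from 250 bases before to 50 bases after the annotated start, and were given for 2 of the 5 genes. Capitals mark the letters AGGTCA and AGTTCA, core motifs of nuclear receptors, read on the opposite strand as TGACCT and TGAACT.

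Defb39, chr8:19064872-19065171: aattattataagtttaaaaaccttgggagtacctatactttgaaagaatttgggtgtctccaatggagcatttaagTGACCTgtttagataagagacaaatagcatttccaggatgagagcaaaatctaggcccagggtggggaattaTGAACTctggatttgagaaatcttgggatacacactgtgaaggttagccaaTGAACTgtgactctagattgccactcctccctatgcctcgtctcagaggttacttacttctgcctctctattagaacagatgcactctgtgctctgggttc

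Defb38, chr8:19026519-19026818: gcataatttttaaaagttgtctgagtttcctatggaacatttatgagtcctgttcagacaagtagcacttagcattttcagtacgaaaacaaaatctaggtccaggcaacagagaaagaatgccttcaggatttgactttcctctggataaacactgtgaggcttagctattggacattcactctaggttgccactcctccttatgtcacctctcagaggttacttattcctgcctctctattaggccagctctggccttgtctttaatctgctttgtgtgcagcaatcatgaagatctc

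The pair was identical at 204 of 269 aligned bases (75.8%), with a longest shared run of 16 bases. The Defb39 window held 3 of the motifs, beginning 174, 102 and 51 bases before the start, and the Defb38 window held 0. Searched on both strands, AGTTCA was found in 14% and AGGTCA in 16.3% of the 32851 promoter windows of the table, either of them in 27.7%, and 3 or more of them in 0.855%. Neither window held a pair of these motifs as a direct repeat 3, 4 or 5 bases apart or as an everted repeat 6 or 8 bases apart. The motifs were chosen with the promoter sequences in view, so these shares are not a test. Matches are a description of letters, and binding of PXR was not measured.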

How the data were processed

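Total RNA (150 ng) of mouse ileum was hybridized by the authors to 1-colour Agilent Sureprint G3 Mouse GE v2 arrays and read with Feature Extraction 10.10.1.1. Per the file headers, the deposited scanner files hold spot intensity on a linear scale. The deposited value table holds log2 values that the authors normalized (CrossNorm) and corrected for wash batch, without Defb38, and served as an alternative. Here, log2 median spot signals were stripped of outlier spots, averaged per probe and quantile normalized. Probes well above background on at least 50% of the arrays of a group (37591 of 56605) were fitted with limma 3.58.1 in R 4.3.3, with 4 groups and wash batch, and Benjamini-Hochberg adjustment over all of them. Calls had an adjusted p of 0.05 or less and a fold change over 1.5. A gene of a list took its brightest tested probe. The scripts were tested on simulated data.

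The members, gene lists and tests were chosen with earlier results of these data known, and the promoter motifs with the promoter sequences in view. Named were the members, reference genes, listed genes called (at most 6 per list and comparison), called genes within 1000 kb and the 5 genes most like Defb39. Confidence intervals are 95%. The number of arrays limits the precision. Alternatives covered signal column, background correction, normalization, filter, wash batch, slide, replicate block, variance model, samples in the fit and each array left out.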

Additional observations from a re-analysis of the deposited data

How the results depend on the processing

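Differences are on the log2 scale with limma adjusted p. The values from the authors' table differed by at most 0.01 from those given and changed no call of the 4 defensins. Replicate numbers did not pair the mice (33 same-numbered pairs, correlations of -0.205 to 0.434, median -0.033). With a replicate block Defb39 in Pxr-/- mice kept 1.47 but missed the threshold (0.0589), and no other call of the 4 defensins changed. The PCN increase of Defb39 in Pxr-/- mice also missed it with normexp background correction (1.23, 0.0566), no filter on dim probes (1.47, 0.0637), a trended robust variance (1.47, 0.0603) and only the compared groups in the fit (1.47, 0.0795). Leaving out 1 array gave 1.18 to 1.72 (0.0193 to 0.118), and the call ended without Pxr-/- CONT replicate 1, 3, 4, 5 or 6, Pxr-/- PCN replicate 1, 2, 4 or 5, or WT CONT replicate 3, 5 or 6. With the compared groups alone, Defb1 in Pxr-/- mice (1.55, 0.0926) and, between genotypes under PCN, Defb37 (-2.22, 0.0588) and Defb40 (-2.56, 0.0905) were lost. In that setting Defb40 (-1.39, 0.0151) passed between genotypes without PCN, where Defb39 was at -1.38. Between genotypes without PCN, slide as a fixed block made Defb37 (-1.53, 0.0264) and Defb40 (-1.83, 0.0223) pass. It put Defb39 at -1.83 and turned Defb1 to 0.22.

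Within wash batch 1, with 2 or 3 arrays a group, the PCN difference was 4.6 for Defb39 in WT mice and 0.93, 1.30, 1.36 and 2.52 for Defb39, Defb37, Defb40 and Defb1 in Pxr-/- mice. Within batch 2 it was 2.34 (0.157) for Defb37 and 2.55 (0.146) for Defb40 in WT mice, and 2.01, 1.99, 2.31 and 0.58 in Pxr-/- mice, where Defb6 was at -0.12 and Gm39139 at 0. Between genotypes under PCN, batch 2 gave -1.56 for Defb37 and -1.75 for Defb40. Defb1 turned to 0.42 between genotypes without PCN, to 0.08 when Pxr-/- CONT replicate 4 was left out (range over single arrays -0.41 to 0.08), and to -0.4 for the interaction in batch 2. The interaction of Defb39 was -3.67 in batch 1 and -1.16 in batch 2. The cause was not tested. Probes called with PCN numbered 259 in WT and 353 in Pxr-/- mice, 48 and 4 within batch 1, 48 and 155 within batch 2, and 486 and 1342 without the fold threshold. Between genotypes 53 were called without PCN, with 257 for slide as a fixed block and 146 for the compared groups alone. Among listed genes, the call of Gm39139 in WT mice ended without WT CONT replicate 1, 3, 4 or 6 or WT PCN replicate 2, 3, 4 or 5 (0.58 to 0.68, 0.0569 to 0.119). That of S100a8 in WT mice ended without any WT CONT replicate, WT PCN replicate 1, 2 or 4 or Pxr-/- CONT replicate 1, 2 or 5 (1.35 to 1.72, 0.0501 to 0.143). That of Il1r1 in Pxr-/- mice ended without Pxr-/- CONT replicate 1, 3 or 4 or Pxr-/- PCN replicate 1, 2, 4 or 5 (0.45 to 0.61, 0.0518 to 0.0689).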
